A study of Mus musculus with 9 samples.

Results

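The genes described here are the p53 response and apoptosis genes, 34 of the 54838 genes in a deposited RPKM table (read counts scaled to gene length and library size) from mouse corona radiata cells. They were taken by gene symbol and comprise 13 p53 regulators and arrest or stress genes, 14 pro-death genes and 7 pro-survival genes. Corona radiata cells are the innermost layer of cumulus granulosa cells around the oocyte. Adult mice had been stimulated with the gonadotropins PMSG and hCG, which induce follicle growth and ovulation, and total RNA was sequenced from 3 libraries of each of 3 genotypes. The genotypes were wild type (WT), knockout of both liver X receptor genes (LXR DKO), and the same double knockout carrying the transgene TG-AMH-LXRb, called transgenic below. The transgenic libraries thus share the knockout alleles with the LXR DKO libraries. What the transgene construct contains, and in which cells it is active, the labels do not say. Nothing in the labels says that the 3 libraries of a group came from separate animals, so a p-value below reflects no more than the spread of these samples, which may be technical.

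p53, encoded by Trp53, is a transcription factor that is kept low by the ubiquitin ligase MDM2 and that, when stabilised by stress, switches on genes for cell-cycle arrest, stress adaptation and cell death. In the mitochondrial pathway BH3-only proteins relieve the pro-survival BCL2 proteins of their hold on the pore formers BAX and BAK, and cytochrome c release then activates caspase 9 on APAF1. Death receptors such as FAS act through caspase 8, IAP proteins restrain caspases, and in the ovary granulosa cell apoptosis accompanies follicle atresia while gonadotropins favour survival.

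The libraries held between 31780900 and 46972430 reads in genes. Nr1h2, which encodes LXR beta, stood at 39.7 to 45.7 RPKM among WT, 2.85 to 3.57 among LXR DKO and 4.83 to 6.70 among transgenic libraries. Markers of cumulus and granulosa cells, 16 of 16 listed genes, averaged 4.66 to 5.01 on the log2(RPKM + 1) scale among WT, 4.28 to 4.59 among LXR DKO and 4.30 to 4.52 among transgenic libraries, so that every WT library lay above every other one. Oocyte markers (19 genes) averaged 5.05 in WT 1 and 3.45 in LXR DKO 1, against 0.249 to 1.67 in the other 7 libraries. WT 3 had the highest erythroid marker mean, 7.31. Oviduct epithelium markers averaged 3.21 to 5.82 in WT, 4.08 to 4.94 in LXR DKO and 5.36 to 5.86 in transgenic libraries. WT 3 was the highest or lowest library for 15 of the 34 genes, or 44.1%, and for 39% of all genes tested. In bulk RNA, fewer cells of a type and less RNA per cell cannot be told apart.

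Promoter sequences are shown for 4 genes: Casp6 and Gadd45a, which passed the test against WT below, Bax, whose WT libraries lay above all others, and Cdkn1a, the best-known transcriptional target of p53. RefSeq promoters (GRCm38.p6) were matched by symbol for 29 of the 34 genes, in 40 windows covering the 250 bases upstream of an annotated start. They were searched for the consensus p53 half-site, a decamer that reads the same on both strands. Capitals mark each match, and for Gadd45a only 30 bases around the match are printed.
Casp6, chr3:129901165-129901414, plus strand: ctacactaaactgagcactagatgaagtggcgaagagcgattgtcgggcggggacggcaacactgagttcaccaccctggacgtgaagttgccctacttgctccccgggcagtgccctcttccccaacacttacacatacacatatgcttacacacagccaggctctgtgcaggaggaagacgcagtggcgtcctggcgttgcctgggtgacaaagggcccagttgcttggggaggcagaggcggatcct
Gadd45a, chr6, minus strand, match starting 40 bases upstream of the start: ggttggctgaGGGCTAGCCCcatatctccg
Bax, chr7:45466899-45467148, minus strand: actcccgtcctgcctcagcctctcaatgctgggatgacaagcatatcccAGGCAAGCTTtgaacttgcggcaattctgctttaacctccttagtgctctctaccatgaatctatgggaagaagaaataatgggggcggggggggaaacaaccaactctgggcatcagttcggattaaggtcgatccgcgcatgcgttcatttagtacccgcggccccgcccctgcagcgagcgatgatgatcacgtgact
Cdkn1a, chr17:29090729-29090978, plus strand: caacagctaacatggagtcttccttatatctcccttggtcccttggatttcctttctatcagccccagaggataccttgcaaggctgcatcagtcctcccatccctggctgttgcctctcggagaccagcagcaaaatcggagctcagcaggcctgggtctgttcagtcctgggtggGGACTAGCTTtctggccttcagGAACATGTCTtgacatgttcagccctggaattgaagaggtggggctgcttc

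The decamer was present in 7 of the 40 windows (17.5%), those of Bax, Ccng1, Cdkn1a, Gadd45a, Mdm2, Sesn1 and Trp53, against 7.13% of 32851 windows in the whole promoter table. The Cdkn1a window shown was the only member window with a pair of exact decamers separated by at most 13 bases. They began 73 and 51 bases upstream of the start with 12 bases between them. Such an exact pair was found in 21 of all windows (0.0639%). Near matches were not marked. In the Cdkn1a window the 10 bases right after the second decamer, tgacatgttc, depart from the half-site in their first base alone. Another Cdkn1a window (chr17:29093519-29093768), whose start lies downstream of that of the window shown, had no match. Another Sesn1 window had none either. The Casp6 window and the 3 windows of Bbc3 had no match, and the single decamers of Bax and Gadd45a began 201 and 40 bases upstream. The LXR response element was searched only as an exact direct repeat of AGGTCA with a spacer of 4 bases, on both strands. It matched no member window and 5 of all windows (0.0152%). So rare a string cannot show whether 40 windows hold LXR sites. A match describes letters in the window and not a bound site.

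By level the genes spanned a wide range. Of the 34, 17 averaged at least 10 RPKM over the 9 libraries, 12 lay between 1 and 10, and 5 lay under 1. Btg2, an antiproliferative gene, was the highest at 150.8 RPKM, above 98.32% of the genes tested, followed by Gadd45a at 82.6, the pro-survival gene Mcl1 at 66.9, Cdkn1a at 50.7 and the pore former Bax at 36.3. The 29 genes at or above 1 RPKM in at least 3 libraries were tested with limma on log2(RPKM + 1), within a fit of 16422 genes, and p-values were adjusted over all of them by Benjamini-Hochberg with a threshold of 0.05. Fold changes below are on that log2 scale, which understates the change of genes near 1 RPKM.

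**Figure D1:**
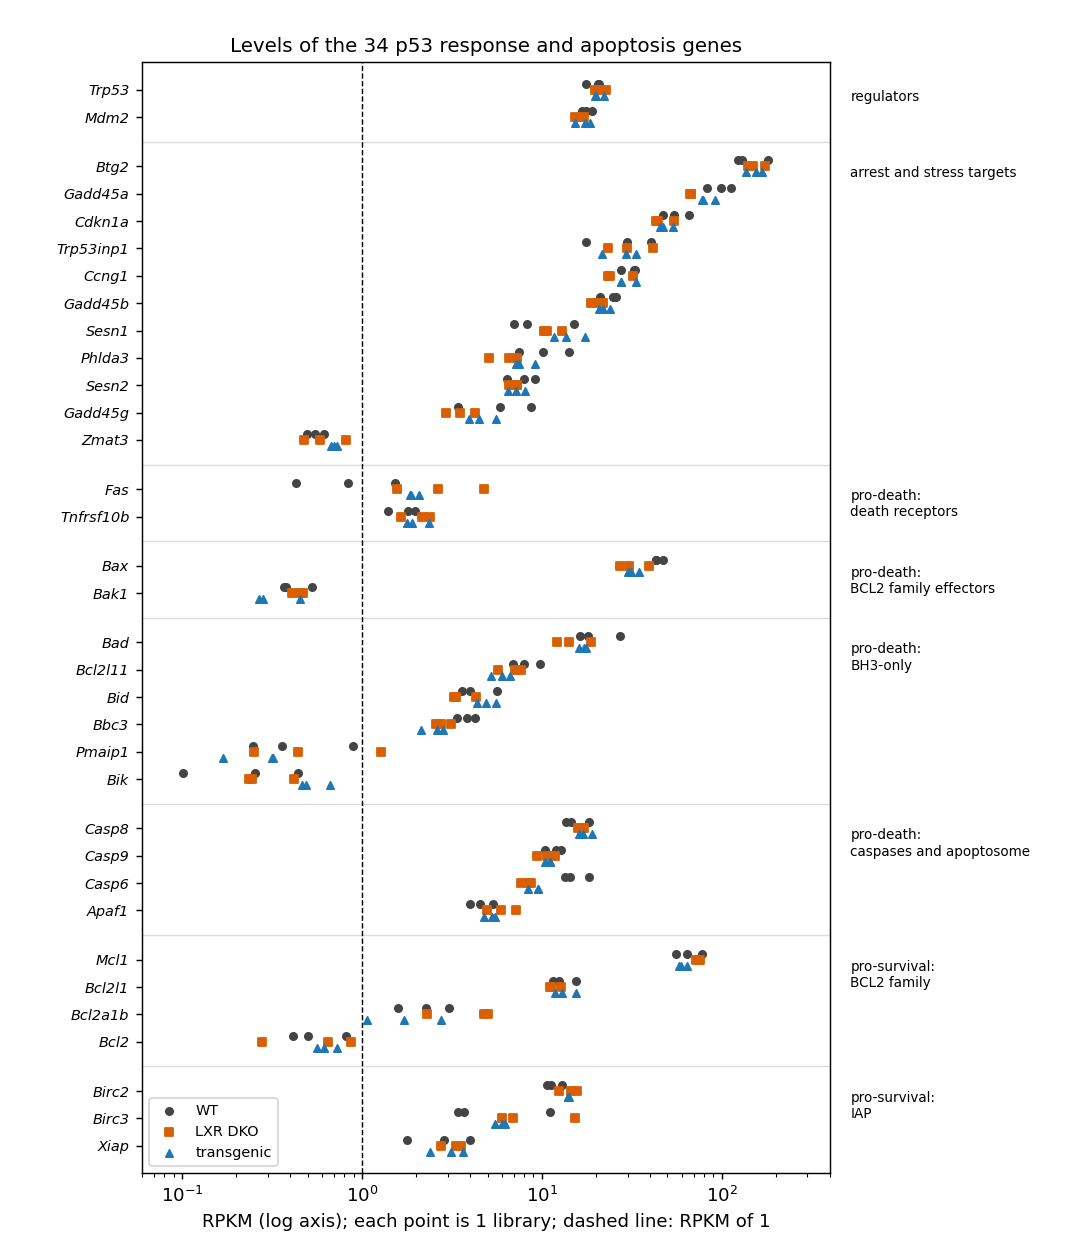
RPKM (log axis) of the 34 p53 response and apoptosis genes in each of the 9 libraries, ordered by role, with 1 point per library and the filter level of 1 RPKM as a dashed line. Btg2, Gadd45a and Mcl1 lie furthest right, and the 5 genes left of the line (Zmat3, Bak1, Pmaip1, Bik and Bcl2) were not tested.

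Against WT, LXR DKO libraries had lower Casp6 and Gadd45a, and no member was higher. These 2 of 29 (limma, adjusted p under 0.05) compare with 7.12% of all genes called lower, 3.47% called higher and 10.6% called in either direction, so the members' share was no larger than that of the table as a whole. At an unadjusted p under 0.05 the count was 8 of 29, where 26.5% of all genes tested were under that level. Transgenic libraries against WT had lower Casp6 and Bbc3 and no higher member, beside 6.72% of all genes called lower, 5.15% higher and 11.9% either way, again a share close to the table's. At an unadjusted p under 0.05 there were 5 of 29 members, beside 30.4% of all genes. Between transgenic and LXR DKO libraries limma called 0 of 29 in either direction, with 3 at an unadjusted p under 0.05 (8.10% of all genes), where 0.0548% of all genes were called higher, 0.0609% lower and 0.116% in all.

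Groups of 3 libraries that did not overlap were found for 6 members between LXR DKO and WT, for 3 between transgenic and LXR DKO and for 6 between transgenic and WT. Over all genes tested the shares were 28.9%, 18.3% and 35.7%. The median log2 difference of the 29 members was -0.13 in LXR DKO against WT, -0.08 in transgenic against WT and 0.04 in transgenic against LXR DKO, where the medians of all genes were 0.02, 0.01 and 0.01. The 2 comparisons against WT share the WT libraries.

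**Figure D2:**
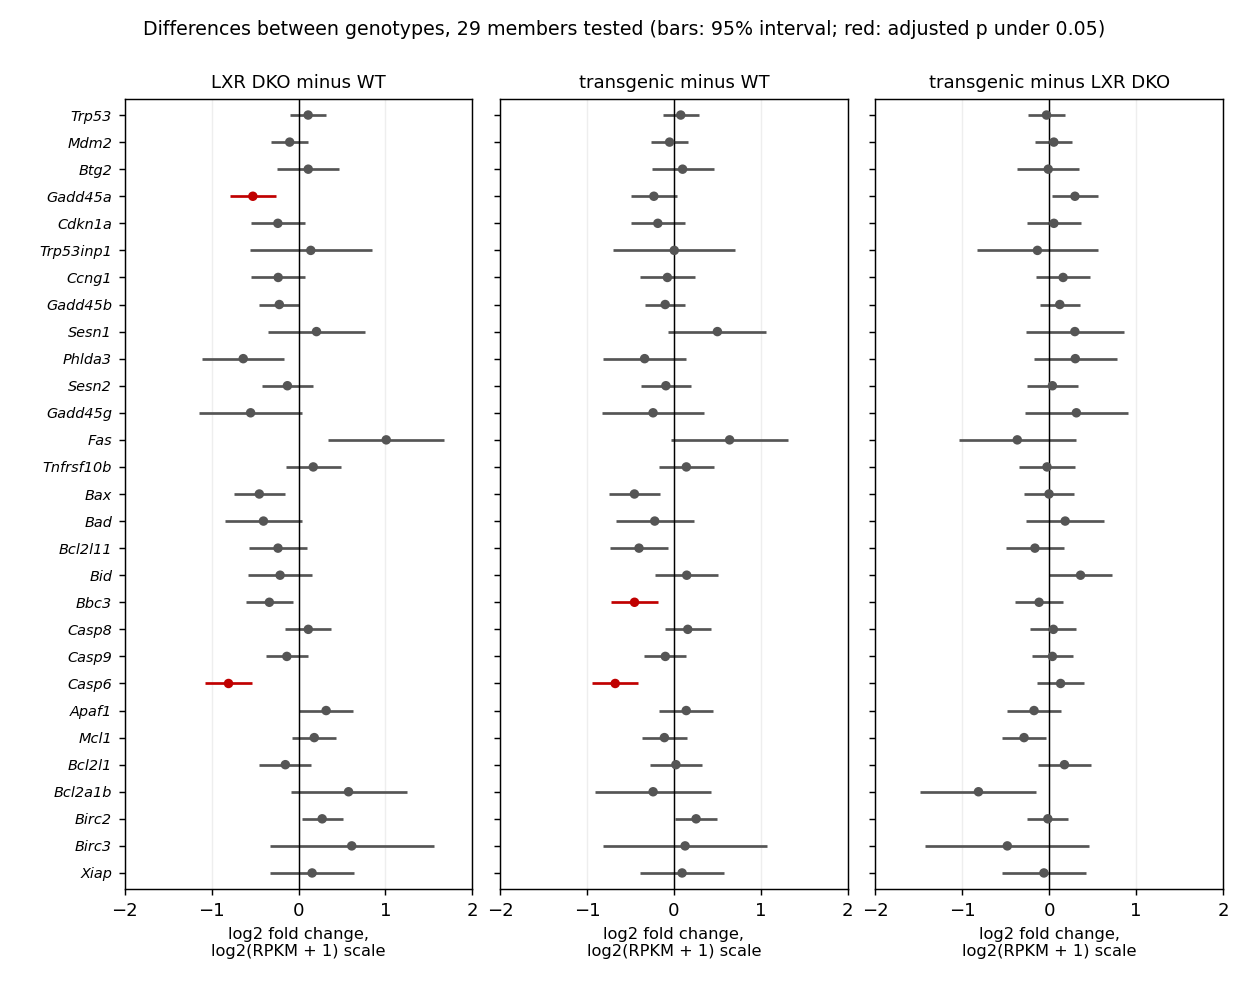
Log2 fold changes of the 29 tested members on the log2(RPKM + 1) scale (x axis) in the 3 comparisons, with 95% intervals from limma and genes with an adjusted p under 0.05 in red. Casp6 is red in both comparisons with WT, Gadd45a in LXR DKO minus WT, Bbc3 in transgenic minus WT, and no gene is red in transgenic minus LXR DKO.

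The genes at the head of the pathway gave nearly the same level in every genotype. Trp53 stood at 20.8, 20.5 and 17.6 RPKM among WT, 22.7, 21.1 and 19.9 among LXR DKO and 19.9, 22.2 and 20.1 among transgenic libraries. All 3 groups overlapped, and the difference from WT was 0.11 ± 0.09 (SE; 95% interval -0.10 to 0.32) in LXR DKO and 0.08 ± 0.09 (-0.13 to 0.29) in transgenic libraries, with limma adjusted p of 0.499 and 0.595. Mdm2, at once the ligase that degrades p53 and a p53 target, measured 19.0, 17.5 and 16.7 RPKM among WT, 17.3, 15.3 and 16.8 among LXR DKO and 18.6, 17.5 and 15.4 among transgenic libraries. Its groups overlapped too, with a difference of -0.10 ± 0.09 (95% interval -0.31 to 0.11; limma adjusted p = 0.538) between LXR DKO and WT. These intervals leave room for small differences only, and they concern RNA; p53 is regulated largely at the protein level, which was not measured.

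Of the 10 arrest and stress targets tested, Gadd45a passed the test and the other 9 did not. Gadd45a (chr6:67035096-67037457, minus strand), a stress sensor of the GADD45 family that acts on growth arrest and p38 signalling, measured 98.8, 112 and 82.6 RPKM among WT, 67.5, 67.4 and 66.5 among LXR DKO and 79.3, 91.6 and 77.7 among transgenic libraries. Every LXR DKO library was below every library of both other groups, and LXR DKO libraries were close to one another. The mean of 67.2 ± 0.577 (SD, n = 3) in LXR DKO was 31.4% below the WT mean of 97.9 ± 14.9, a log2 difference of -0.53 ± 0.12 (limma adjusted p = 0.0245). The transgenic mean was 82.9 ± 7.62, between the others, and neither its difference from LXR DKO (0.30 ± 0.12, adjusted p = 0.564 by limma) nor from WT (-0.23 ± 0.12, adjusted p = 0.215) passed; without WT 3 the latter was -0.35 with an adjusted p of 0.0376. The call between LXR DKO and WT was lost in 7 of 17 alternative analyses, with an adjusted p of up to 0.0991. Among them were the analyses that left out WT 1 or WT 2, and those that left out LXR DKO 2 or 3. The noncoding gene E230016M11Rik overlaps Gadd45a, and the strand setting of the counting is unstated, so its reads and those of Gadd45a may not be told apart.

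The relatives of Gadd45a did not pass the test with all 9 libraries. Gadd45b averaged 23.9 ± 2.52 RPKM among WT, 20.3 ± 1.62 among LXR DKO and 22.2 ± 1.63 among transgenic libraries (SD, n = 3), a difference of -0.22 ± 0.10 between LXR DKO and WT (limma adjusted p = 0.205). Gadd45g measured 3.41, 5.90 and 8.68 RPKM in WT, so the WT libraries alone differed more than 2-fold, against 2.94 to 4.25 in LXR DKO and 3.95 to 5.55 in transgenic libraries. Its difference between LXR DKO and WT was -0.55 ± 0.26 (limma adjusted p = 0.217), -0.85 (adjusted p = 0.0474) without WT 1, -0.95 (adjusted p = 0.0447) without WT 1 and LXR DKO 1, and -0.28 (adjusted p = 0.414) without WT 3.

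Cdkn1a encodes p21, the cyclin-dependent kinase inhibitor that arrests the cycle downstream of p53. Its levels were 66.0, 47.4 and 54.6 RPKM among WT, 54.3, 42.9 and 44.3 among LXR DKO and 53.7, 47.2 and 45.6 among transgenic libraries. The groups overlapped, with replicate 1 the highest in each. The difference of LXR DKO from WT was -0.24 ± 0.14 (95% interval -0.55 to 0.08; limma adjusted p = 0.316) and that of transgenic libraries was -0.19 ± 0.14 (adjusted p = 0.396).

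Phlda3, a p53 target whose product restrains AKT, was at 10.1, 7.49 and 14.2 RPKM among WT, 6.56, 7.28 and 5.09 among LXR DKO and 7.48, 7.24 and 9.19 among transgenic libraries. WT and LXR DKO did not overlap, but the difference of -0.64 ± 0.21 did not pass (limma adjusted p = 0.0893); without WT 2 the adjusted p was 0.0409. Sesn1, one of the sestrins that curb TORC1 under stress, was at 7.05, 8.32 and 15.1 RPKM among WT, 10.3 to 13.02 among LXR DKO and 11.7 to 17.4 among transgenic libraries. WT 3 stood above the other WT libraries, and the transgenic difference from WT was 0.50 ± 0.25 (limma adjusted p = 0.208) with it and 0.80 (adjusted p = 0.0119) without it. The other targets, Btg2, Ccng1 (cyclin G1), Trp53inp1 and Sesn2, overlapped between all groups, with limma adjusted p of 0.322 or more in every comparison. Trp53inp1 ran from 17.6 to 40.5 RPKM within WT alone.

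Among the pro-death genes, Casp6 (chr3:129901425-129914103, plus strand) gave the clearest difference. It encodes caspase 6, an effector caspase that cleaves lamin A. Casp6 measured 13.5, 14.4 and 18.3 RPKM among WT, 7.67, 8.76 and 8.54 among LXR DKO and 9.59, 8.45 and 9.59 among transgenic libraries, on 1466 to 4798 reads per library. All 6 LXR DKO and transgenic libraries were below all 3 WT libraries, while LXR DKO and transgenic libraries overlapped. The LXR DKO mean of 8.32 ± 0.577 (SD, n = 3) was 46.0% below the WT mean of 15.4 ± 2.52, a log2 difference of -0.81 ± 0.12 (95% interval -1.07 to -0.54; limma adjusted p = 0.00501). The transgenic mean of 9.21 ± 0.66 was 40.2% below WT, or -0.68 ± 0.12 (-0.94 to -0.41; adjusted p = 0.0112 by limma), and its difference from LXR DKO was 0.13 ± 0.12 (adjusted p = 0.823). Both differences from WT passed in 17 of 17 alternative analyses, with adjusted p of up to 0.0240 and 0.0456.

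Casp8, Casp9 and Apaf1 did not pass. Casp8, the initiator caspase of the death receptors, averaged 15.5 ± 2.55 RPKM among WT, 16.7 ± 0.634 among LXR DKO and 17.4 ± 1.59 among transgenic libraries (SD, n = 3). Casp9, the initiator of the mitochondrial pathway, averaged 11.8 ± 1.22, 10.7 ± 1.24 and 10.9 ± 0.447 in the same order. Apaf1, the scaffold of the apoptosome, averaged 4.62 ± 0.672, 6.02 ± 1.11 and 5.17 ± 0.359, a difference of 0.32 ± 0.14 between LXR DKO and WT (limma adjusted p = 0.181).

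Bax (chr7:45461697-45466898, minus strand), which encodes the pore former of the outer mitochondrial membrane, measured 46.9, 43.1 and 43.0 RPKM among WT, 39.5, 30.6 and 27.3 among LXR DKO and 30.2, 34.9 and 31.2 among transgenic libraries. Every WT library was above the other 6. The means were 44.3 ± 2.27 among WT, 32.5 ± 6.29 among LXR DKO and 32.1 ± 2.51 among transgenic libraries (SD, n = 3), which are 26.7% and 27.6% below WT. The log2 differences from WT were -0.45 ± 0.13 in both, with limma adjusted p of 0.0583 and 0.0531, just over the threshold. Leaving out LXR DKO 1, the highest of its group, gave adjusted p below it for both. The difference passed in 2 of 17 alternatives for LXR DKO and in 4 of 17 for transgenic libraries. Adjusted p over the alternatives ran from 0.0101 to 0.182 and from 0.0165 to 0.155. The gene Gm45808 overlaps Bax, and with the strand setting unstated the reads of both may not be told apart. Other members, among them Bid, Bad and Fas, also overlap annotated genes. Bak1, the other pore former among the 34 genes, lay under the filter, on 21 to 56 reads. It was at 0.528, 0.370 and 0.380 RPKM among WT, 0.456, 0.472 and 0.409 among LXR DKO and 0.269, 0.281 and 0.453 among transgenic libraries. Bax thus stood 64.9 to 125 times above Bak1 per length of gene in each library.

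The BH3-only genes encode sensors that unleash BAX and BAK. Bbc3 (chr7:16308393-16318205, plus strand), which encodes PUMA, a direct p53 target, was at 4.27, 3.37 and 3.83 RPKM among WT, 3.13, 2.57 and 2.74 among LXR DKO and 2.81, 2.14 and 2.62 among transgenic libraries. Every WT library was above the other 6. The transgenic mean of 2.52 ± 0.35 (SD, n = 3) was 33.98% below the WT mean of 3.82 ± 0.448, a log2 difference of -0.45 ± 0.12 (limma adjusted p = 0.0432), and the LXR DKO mean of 2.82 ± 0.286 gave -0.34 ± 0.12 (adjusted p = 0.113). The transgenic call was lost in 11 of 17 alternatives, where the adjusted p reached 0.134, among them those that left out any one WT or transgenic library, LXR DKO 2 or LXR DKO 3.

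Bcl2l11, which encodes BIM, was at 7.99, 9.79 and 6.95 RPKM among WT, 5.69, 7.66 and 7.14 among LXR DKO and 6.02, 6.66 and 5.23 among transgenic libraries. Transgenic libraries were all below WT, at -0.40 ± 0.15 (limma adjusted p = 0.108; 0.0430 without WT 3). Bid, which links caspase 8 to mitochondria, was at 3.35, 4.30 and 3.26 RPKM among LXR DKO and 4.38, 4.88 and 5.55 among transgenic libraries, which did not overlap, and at 3.59, 3.98 and 5.68 in WT. The difference between transgenic and LXR DKO libraries was 0.36 ± 0.16 (limma adjusted p = 0.62). Bad, inactivated by AKT phosphorylation, averaged 20.5 ± 5.8 RPKM in WT, with WT 3 alone at 27.1, and 15.1 ± 3.43 in LXR DKO and 17.0 ± 0.737 in the transgenic group, without passing the test. Pmaip1, which encodes NOXA, and Bik lay under the filter. Pmaip1 was at 0.249, 0.898 and 0.362 RPKM among WT, 0.252, 0.440 and 1.28 among LXR DKO and 0.318, 0.170 and 0.323 among transgenic libraries. Bik was at 0.443, 0.102 and 0.254, then 0.420, 0.244 and 0.237, then 0.488, 0.465 and 0.667 RPKM in the same order, on 6 to 36 reads. The 3 transgenic values of Bik were its highest.

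Fas, the death receptor and a p53 target, had its groups in the opposite order. It was at 0.429, 0.840 and 1.53 RPKM among WT, 1.58, 4.80 and 2.64 among LXR DKO and 2.09, 1.86 and 1.87 among transgenic libraries. All WT libraries lay below the other 6, WT 3 by a narrow margin, and LXR DKO libraries were widely spread. Fas reached 1 RPKM in 7 libraries, with WT 3 alone among WT, so it entered the test through the groups where it was higher. Its values, like those of Bad and Pmaip1, were not whole multiples of 1 read, so no reads are given for these genes. The log2 difference of LXR DKO from WT was 1.01 ± 0.30 (95% interval 0.34 to 1.68; limma adjusted p = 0.0634), below the threshold without WT 3 or without LXR DKO 1, the lowest adjusted p being 0.0244. That of transgenic libraries was 0.64 ± 0.30 (adjusted p = 0.181). Neutrophil markers, 6 of 6 listed genes and none at 0 in every library, averaged 1.54 in LXR DKO 2, the library highest in Fas, 0.526 and 0.954 in the other LXR DKO libraries, 0.186 to 0.684 in WT and 0.243 to 0.425 in transgenic libraries; their part in the Fas values was not tested. Tnfrsf10b, the mouse TRAIL receptor gene, was at 1.40 to 2.39 RPKM over all libraries with overlapping groups.

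**Figure D3:**
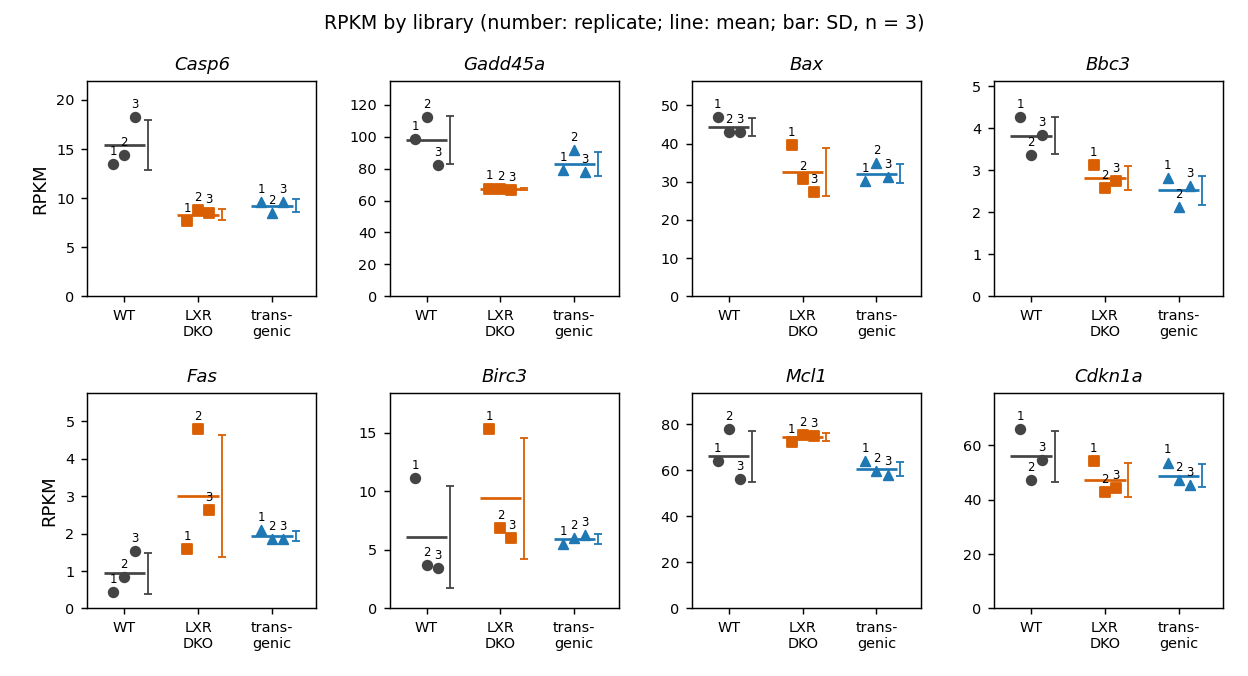
RPKM (y axis, from 0) of 8 genes in each library, numbered by replicate, with the group mean as a line and the SD (n = 3) as a bar. For Casp6, Bax and Bbc3 the 3 WT libraries lie above all others, for Gadd45a the 3 LXR DKO libraries lie below all others, and for Birc3 WT 1 at 11.1 and LXR DKO 1 at 15.3 stand apart from the rest.

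The pro-survival genes gave 0 calls among 6 tested in each comparison with limma. At an unadjusted p under 0.05 there was 1 gene between LXR DKO and WT, 2 between transgenic and LXR DKO and 1 between transgenic and WT, where the shares of all genes were 26.5%, 8.10% and 30.4%. Their median log2 difference between LXR DKO and WT was 0.23, and that of the 11 tested pro-death genes was -0.21. The same medians were 0.06 and -0.10 between transgenic and WT, and -0.18 and -0.0028 between transgenic and LXR DKO, where the pro-survival median was the lower one. Of the 11 pro-death genes, 1 was called lower and 0 higher between LXR DKO and WT, and 2 lower and 0 higher between transgenic and WT. Over all genes 7.12% and 6.72% were called lower in these comparisons. Between transgenic and LXR DKO 0 pro-death genes were called.

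Mcl1, a short-lived BCL2 relative that holds BAK and BIM, supplied most of the RPKM summed over the 4 pro-survival BCL2-family members. It was at 64.0, 77.8 and 56.1 RPKM among WT, 72.3, 75.4 and 75.01 among LXR DKO and 63.8, 59.8 and 58.1 among transgenic libraries. All transgenic libraries were below all LXR DKO libraries, at -0.29 ± 0.11 with an unadjusted p of 0.0305 and a limma adjusted p of 0.557, and both overlapped WT. Bcl2l1, which encodes BCL-XL, was at 11.6, 12.5 and 15.6 RPKM among WT, 12.8, 11.3 and 11.1 among LXR DKO and 12.9, 11.8 and 15.5 among transgenic libraries, all overlapping (-0.15 ± 0.13 between LXR DKO and WT, limma adjusted p = 0.519). Bcl2 itself lay under the filter, at 0.417, 0.504 and 0.813 RPKM among WT, 0.279, 0.871 and 0.652 among LXR DKO and 0.561, 0.618 and 0.727 among transgenic libraries. Mcl1 RNA thus exceeded Bcl2 RNA 69.0 to 259.5 times and Bcl2l1 RNA 3.60 to 6.75 times per length of gene. Bcl2l10, a BCL2 relative outside the 34 genes, was above Mcl1 in WT 1 and LXR DKO 1, at 113 and 200 RPKM. It was at 0.354 to 34.2 RPKM in the other libraries. WT 1 and LXR DKO 1 also had the most oocyte RNA, with the oocyte gene Gdf9 at 126 and 136 RPKM against 0.505 to 10.9 elsewhere. The part of oocyte RNA in the Bcl2l10 values was not tested.

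Bcl2a1b, a BCL2 relative typical of leukocytes, was at 1.58, 2.28 and 3.07 RPKM among WT, 2.31, 4.76 and 5.002 among LXR DKO and 1.72, 1.06 and 2.74 among transgenic libraries. Groups overlapped, and the transgenic difference from LXR DKO was -0.81 ± 0.29 (unadjusted p = 0.0222, limma adjusted p = 0.514). Its near copies Bcl2a1a and Bcl2a1d may share reads with it, so its own level is uncertain. Both copies were also highest in LXR DKO 2 and LXR DKO 3, at 6.86 and 6.62 RPKM for Bcl2a1a and 7.65 and 7.35 for Bcl2a1d. Macrophage markers, 15 of 15 listed genes and none at 0 in every library, averaged 3.42 to 3.86 on the log2 scale in LXR DKO, 3.26 to 4.16 in WT and 2.63 to 2.97 in transgenic libraries. Their part in the Bcl2a1b values was not tested.

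Of the IAP genes, Birc2 (cIAP1) was at 11.2, 12.98 and 10.6 RPKM among WT, 12.4, 15.8 and 14.6 among LXR DKO and 14.1, 14.0 and 14.0 among transgenic libraries. Transgenic libraries were all above WT, at 0.26 ± 0.10 (limma adjusted p = 0.14). Birc3 (cIAP2), an NF-kB target, was at 11.1, 3.68 and 3.45 RPKM among WT, 15.3, 6.89 and 6.0002 among LXR DKO and 5.49, 5.98 and 6.29 among transgenic libraries. WT 1 and LXR DKO 1, the libraries with the most oocyte RNA, were the highest of their groups, and with them the difference between LXR DKO and WT was 0.61 ± 0.42 (limma adjusted p = 0.396). Without both, Birc3 was higher than in WT in LXR DKO (0.70, adjusted p = 0.0251) and in transgenic libraries (0.60, adjusted p = 0.0272), which rests on 2 WT libraries. Xiap, the direct caspase inhibitor, ran from 1.78 to 4.01 RPKM with all groups overlapping.

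The balance of Bax and Bak1 against pro-survival members was also described per library. The ratio of Bax to Mcl1 RPKM was 0.733, 0.553 and 0.766 among WT, 0.546, 0.406 and 0.365 among LXR DKO and 0.473, 0.584 and 0.536 among transgenic libraries. WT and LXR DKO did not overlap, with WT 2 and LXR DKO 1 nearly equal, and transgenic libraries overlapped both. For Bax plus Bak1 over the summed BCL2-family pro-survival members the values were 0.612, 0.466 and 0.574 among WT, 0.456, 0.337 and 0.302 among LXR DKO and 0.385, 0.481 and 0.410 among transgenic libraries. These ratios cover members alone. Bok, another pro-death BCL2 relative, is outside the 34 genes and was above Bax in every library. It was at 61.4 to 99.2 RPKM among WT, 38.2 to 65.8 among LXR DKO and 55.6 to 62.8 among transgenic libraries. The ratios were formed from genes already described and carry no test.

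Zmat3, a p53 target encoding an RNA-binding protein, was the fifth gene under the filter, at 0.499, 0.617 and 0.552 RPKM among WT, 0.475, 0.818 and 0.583 among LXR DKO and 0.698, 0.729 and 0.678 among transgenic libraries. Its LXR DKO values enclosed all others. When genes of every level were tested, none of the 5 genes under the filter passed in any comparison.

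The precision behind these calls differed by gene and comparison. Between transgenic and LXR DKO libraries the 95% interval lay within 0.5 log2 units of 0 for 17 of 29 members and within 1 for 26, the exceptions to the latter being Fas, Birc3 and Bcl2a1b. Between LXR DKO and WT the counts were 10 and 23, and between transgenic and WT 15 and 26. The median SD of the members on the log2 scale was 0.222 among WT, 0.168 among LXR DKO and 0.131 among transgenic libraries, and 0.17, 0.147 and 0.114 over all genes tested.

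Genes of the same pathways outside the 34 were followed through 2 further lists. Of 32 other p53 pathway genes tested, 1 rose and 1 fell in both comparisons with WT, and 0 passed between transgenic and LXR DKO (limma, 1 at an unadjusted p under 0.05). Over all genes 10.6% were called between LXR DKO and WT and 11.9% between transgenic and WT. Rps27l, a p53-inducible relative of a ribosomal protein gene, was at 85.2 ± 1.69 RPKM among WT, 54.1 ± 1.17 among LXR DKO and 57.9 ± 5.56 among transgenic libraries (SD, n = 3). Its log2 differences from WT were -0.65 ± 0.08 (limma adjusted p = 0.00251) and -0.55 ± 0.08 (adjusted p = 0.00518). Tnfrsf23, a decoy receptor for TRAIL, was at 1.66 ± 0.159 among WT, 3.04 ± 0.217 among LXR DKO and 2.92 ± 0.456 among transgenic libraries, which is 0.60 ± 0.12 (limma adjusted p = 0.0146) and 0.56 ± 0.12 (adjusted p = 0.0203) higher. Rps27l closely resembles other ribosomal sequences, so its counting is uncertain.

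Of 35 other apoptosis genes tested, 4 rose and 0 fell between WT and LXR DKO, and 3 rose and 0 fell between WT and transgenic libraries. The median log2 difference of that list was 0.08 and 0.05. Over all genes 3.47% and 5.15% were called higher, and 10.6% and 11.9% either way, in the same 2 comparisons. Bnip3, a hypoxia-linked mitophagy and death gene, averaged 40.1 ± 4.89 RPKM among WT, 63.6 ± 7.41 among LXR DKO and 65.0 ± 16.9 among transgenic libraries (SD, n = 3), with limma adjusted p of 0.0479 and 0.0434 against WT. Vdac2, an outer mitochondrial membrane channel that binds BAK, averaged 36.0 ± 2.44, 43.8 ± 0.642 and 46.1 ± 1.75 in the same order (limma adjusted p of 0.0441 and 0.0203). Traf2, an adaptor of TNF receptors, and Bmf, a BH3-only gene, passed in LXR DKO against WT, at 0.38 and 0.64 (limma adjusted p of 0.0354 and 0.0492), and stood at 0.33 and 0.57 in transgenic libraries (adjusted p of 0.0510 and 0.0642). Pdcd4, a translation inhibitor, passed in transgenic libraries against WT (0.82 ± 0.14; limma adjusted p = 0.00917), at 10.9 ± 0.651 RPKM in WT, 14.8 ± 2.94 in LXR DKO and 19.9 ± 1.29 in transgenic cells. Between transgenic and LXR DKO libraries 0 of 35 passed, with 2 at an unadjusted p under 0.05.

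Other gene groups also differed from WT in these comparisons. Of 21 immediate early and dissociation stress genes, 7 fell in LXR DKO against WT and 8 fell in the transgenic libraries against WT (limma), and 0 rose in either. Jun, for one, was at 92.0 ± 7.29 RPKM among WT, 52.1 ± 3.66 among LXR DKO and 52.2 ± 4.35 among transgenic libraries (SD, n = 3). The cumulus and granulosa marker mean was likewise lower outside WT, as given above, with 5 and 6 of 15 tested markers lower. Over all genes 7.12% and 6.72% were called lower in the same comparisons. The markers did not move together, with 4 of the 15 above 0 and 11 below in each comparison. In LXR DKO against WT, Tnfaip6, Hsd17b1 and Ptx3 were called lower at -1.89, -1.32 and -0.91. Fshr, Nr5a1 and Nr5a2 stood at 0.23, 0.23 and 0.28 without passing. Macrophage markers averaged 2.63 to 2.97 among transgenic libraries against 3.26 to 4.16 among WT, with all 14 tested below 0 and 5 called lower (limma), in the comparison in which Bbc3 passed. Oviduct epithelium markers went the other way in that comparison. All 11 tested were above 0, with a median of 1.54, and 1 was called higher (limma), beside 5.15% of all genes. In LXR DKO against WT 9 of the 11 were above 0 and 0 were called. What part the stress genes or the cell markers have in the lower Casp6, Gadd45a, Bax and Bbc3 values was not tested.

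The genes next to Casp6 and Bax were read from the same fit, a choice made after their values were seen. Within 1 Mb of the Casp6 start 15 other genes were tested, of which 2 were called lower between LXR DKO and WT (13.3%), and 2 lower and 1 higher between transgenic and WT (20%). Around Gadd45a the counts were 4 of 17 (23.5%) and 3 of 17 (17.6%), and around Bbc3 they were 1 of 31 (3.23%) and 2 of 31 (6.45%). Over all genes 10.6% and 11.9% were called. Mcub, the gene of an inhibitory subunit of the mitochondrial calcium uniporter, lies on the opposite strand with its end 856 bases from the end of Casp6. It was at 11.9, 12.5 and 14.7 RPKM among WT, 5.19, 4.10 and 3.80 among LXR DKO and 3.19, 3.00 and 3.49 among transgenic libraries, that is -1.39 (limma adjusted p = 0.000396) and -1.73 (adjusted p = 0.000126) against WT. Rpl34, a ribosomal protein gene whose many processed copies make its counting uncertain, was at 10.4 to 11.1 RPKM among WT, 3.15 to 3.39 among LXR DKO and 3.45 to 4.10 among transgenic libraries. Casp6 and Mcub thus ordered WT against the other libraries in the same way, and whether reads past the end of either gene enter the count of the other was not tested.

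Bax lies 0.913 Mb from Nr1h2, the gene of LXR beta, and Bbc3 lies 28.2 Mb from it on the same chromosome. Within 1 Mb of the Bax start 64 other genes were tested, with 1 called higher and 6 lower between LXR DKO and WT (10.9%), and 5 higher and 7 lower between transgenic and WT (18.8%), Nr1h2 among the lower ones in both. Around Nr1h2 itself 4 (6.78%) and 8 (13.6%) of 59 were called. Ftl1, the ferritin light chain gene beginning 7.01 kb from the Bax start, was at 415 ± 26.3 RPKM among WT, 274 ± 50.7 among LXR DKO and 265 ± 2.68 among transgenic libraries (SD, n = 3), with limma adjusted p of 0.0190 and 0.0166. Bcl2l12, a BCL2 family relative in the same window, was at 2.75 ± 0.145, 1.42 ± 0.138 and 1.77 ± 0.203 RPKM (limma adjusted p of 0.00830 and 0.0326). What part the position beside Nr1h2 has in the Bax values was not tested.

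**Figure D4:**
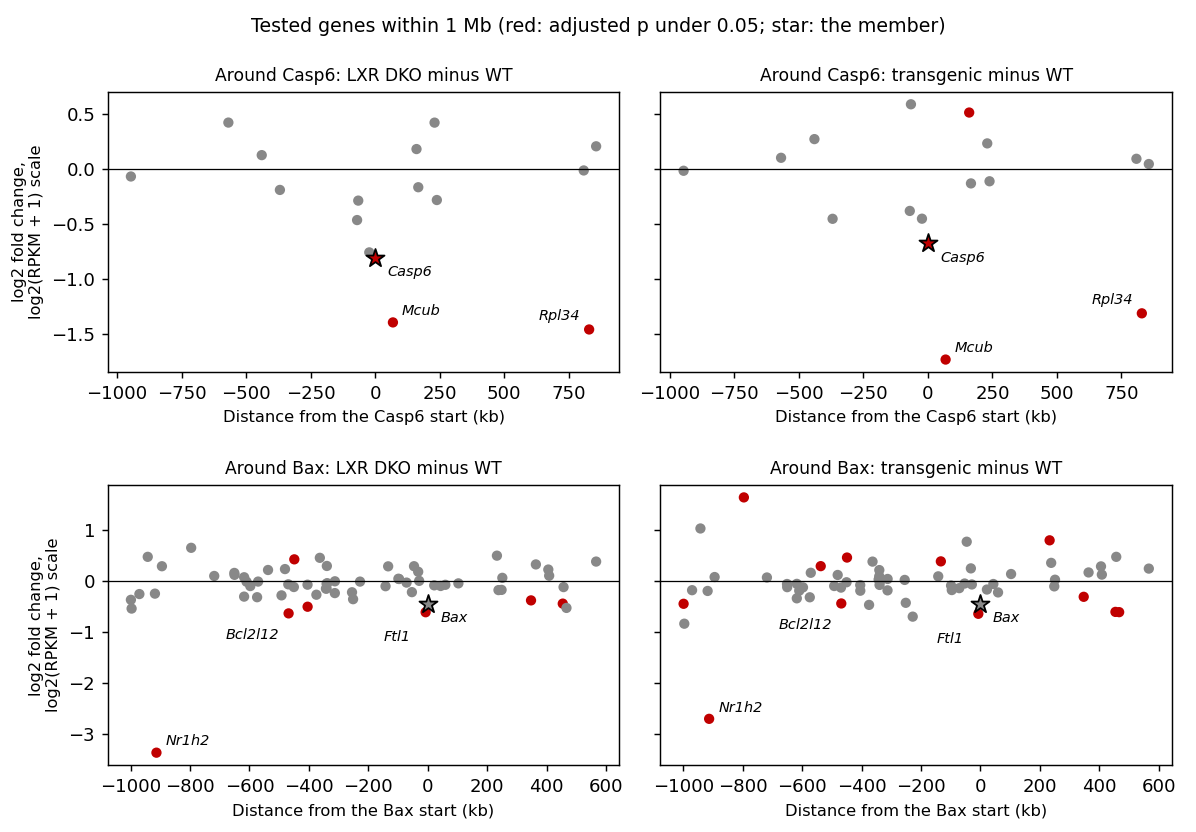
Log2 fold changes against WT (y axis, log2(RPKM + 1) scale) of tested genes within 1 Mb of Casp6 and of Bax, by distance from the start of each (x axis, kb), with the member as a star and genes with an adjusted p under 0.05 in red. Mcub and Rpl34 lie below Casp6 in both upper panels, and Ftl1 lies beside Bax in both lower panels.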

How the data were processed

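Total RNA of 9 corona radiata libraries, 3 per genotype, was sequenced. The deposited values are RPKM, which the authors made per library. Per the submitters' processing notes, the tools were HISAT2 2.1.0, cutadapt, DESeq2 1.2.8 and HTSeq 0.5.4p5 and the build mm10, with no roles; the annotation and the strand setting are unstated. Transgenic columns were matched to samples by title, their names differing by 1 letter from the labels.

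RPKM values were tested as log2(RPKM + 1) with limma 3.58.1 (R 4.3.3, moderated, with trend) over genes at or above 1 RPKM in at least 3 libraries. The model held all 9 libraries without a block. It was tested on simulated data. Low values were whole multiples of 1 read within 0.02 for 98.1% of genes above 0, which gave the reads per library. Replicate numbers did not pair the samples: the correlation of deviations was -0.29 to 0.67 for 9 same-number pairs and -0.55 to 0.53 for 18 others. Gene positions are from GENCODE on mm10, and promoters from RefSeq.

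The members and gene lists were chosen with earlier results of these data known. All 34 members are accounted for, with values per library for called genes, for 8 core genes and for genes under the filter. Other lists are given as counts with up to 4 named genes per comparison. Bok and Bcl2l10 are also named, for their levels. Alternatives were another pseudocount, other filters and scalings, 2 genotypes per fit, a replicate block, and libraries left out.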

Additional observations from a re-analysis of the deposited data

How the results depend on the processing

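No member reversed its direction on a call in any of the 17 alternatives, and Casp6 stayed lower than WT in all of them in both comparisons. Counts of members called lower in LXR DKO against WT went from 2 to 1 with no filter on low values and to 1 with only the 2 genotypes compared. In transgenic against WT the lower count went from 2 to 1 with no filter and to 1 without WT 1 and LXR DKO 1 together. That last setting also gave 1 higher member, Birc3, against 0 in each comparison with WT. Leaving out 1 library at a time gave 1 to 3 members lower and 0 to 1 higher in LXR DKO against WT, 1 to 3 lower and 0 to 1 higher in transgenic against WT, and 0 between transgenic and LXR DKO. The higher member was Fas without WT 3 or without LXR DKO 1, and Sesn1 in transgenic libraries without WT 3. Fas entered the test through the groups where it was higher, and without WT 3 no WT library reached 1 RPKM for it. Fitting the replicate block left 2 lower and 0 higher members in each comparison with WT.

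Counts over all genes moved more. In LXR DKO against WT, 570 genes were higher and 1169 lower; the counts were 357 and 821 with the replicate block, 313 and 719 with no filter, 226 and 581 with only 2 genotypes, 178 and 428 without LXR DKO 3, and 899 and 1183 without WT 3. In transgenic against WT the 846 higher and 1103 lower became 451 and 645 with no filter, 503 and 896 with only 2 genotypes, 240 and 401 without transgenic 3, and 2018 and 1424 without WT 3. Between transgenic and LXR DKO the 9 higher and 10 lower became 54 and 42 with only 2 genotypes, 104 and 52 without WT 3, and 2 and 2 without LXR DKO 3. The cause was not tested. With 3 libraries a group, differences within about 0.5 log2 units could not be resolved for many members. Of the genes under 1 RPKM, Bak1 rested on 21 to 56 reads per library and Bik on 6 to 36. The longer genes Zmat3 and Bcl2 had 228 to 370 and 107 to 350 reads.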
